A study of Caenorhabditis elegans with 4 samples.

Results

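The genes at the left end of the X chromosome of Caenorhabditis elegans were examined in gonad mRNA with and without the histone methyltransferase MET-2. A gene was included if the deposited gene table placed its start below position 4000000 of X and its name did not belong to any of 10 large families (clec, fbxa, math, bath, str, nhr, col, vit, his and msp). Of 626 genes in this stretch, 20 were left out by name, and 606 remained, hereafter the left-end genes. They were 2.97% of the 20389 genes in the table and 21.5% of the 2818 genes on X. The rule uses position and name, and it was set with earlier results of these data known. The table names no genome build, so positions are given as it lists them, counted from 1.

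Gonads were dissected from adult hermaphrodites that carried him-8(tm611) alone (him-8) or combined with met-2(n4256) (met-2;him-8). Each genotype gave 2 libraries from separate sets of gonads. Each preparation used 400 gonad arms, and polyA RNA was sequenced. Since both groups carry the him-8 mutation, X pairing and synapsis are disrupted in each of them, and the met-2 allele is the only labelled difference. Animals homozygous for met-2 came from a balanced stock a short time before use, and they were fertile. A gonad arm holds germ cells together with somatic sheath and spermathecal cells, and in such bulk samples fewer cells of a type and less RNA per cell cannot be told apart.

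The left end of X contains the X pairing center, a stretch of DNA that brings the X homologs together in meiosis and is bound by the zinc finger protein HIM-8. X chromosomes that fail to synapse acquire dimethylation of histone H3 on lysine 9 (H3K9me2) in pachytene nuclei, and MET-2, a SETDB1-type enzyme, makes this mark in the germ line. X-linked genes are mostly silent in early meiotic germ cells and many are first transcribed in oocytes. The region is also home to the X signal elements fox-1 and ceh-39, which count X chromosomes in the embryo by repressing the sex switch gene xol-1.

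The libraries held between 14255714 and 49848077 gene reads. Counts were scaled by trimmed mean of M values (TMM) to CPM, reads per 1000000. The met-2 transcript, which checks the labels, had 25.8 and 52.8 CPM with the met-2 mutation and 127 and 212 CPM without it, a log2 fold change of -2.11 ± 0.46 (SE). Summed over fixed marker lists, 13 of 13 intestinal genes were measured and their sum was higher in both met-2;him-8 libraries, 2182 and 1181 CPM against 952 and 632 CPM. This difference lay mostly in asp-1, but vit-6 (289 and 272 against 161 and 166 CPM) and vit-2 (282 and 268 against 193 and 183 CPM) were also higher in both. Of 12 tested genes of the list, 3 were higher in both met-2;him-8 libraries and 0 lower in both. The gut-defining factor elt-2 did not exceed 0.733 CPM in any library. A list of sheath, spermatheca and muscle genes, of which 14 were in the table, summed to 654 and 2122 CPM in met-2;him-8 and 923 and 1278 CPM in him-8, highest in met-2;him-8 replicate 2. Most of that sum was fln-1 (1502 CPM). The muscle genes unc-54, unc-15 and myo-3 were also highest in that library, at 123, 40.4 and 14.5 CPM, as were let-502, tnt-2, myo-2 and fos-1. By contrast, the sheath genes inx-8, inx-9 and lim-7, and also sth-1, were lowest in the same library. Markers of germ cells and oocytes summed to 15390 and 18820 CPM in met-2;him-8 and 14724 and 15159 CPM in him-8, higher in both met-2;him-8 libraries. Of the 18 genes of that list, all tested, 5 were higher and 4 lower in both met-2;him-8 libraries. Markers of sperm summed to between 56.6 and 117 CPM, those of neurons to between 117 and 165 CPM, and those of hypodermis to between 204 and 301 CPM. With 4 libraries an exact permutation test of a single value cannot give a p below 0.333, so tests were taken from a model fitted over all genes.

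The left-end genes were sparsely read in the gonad. In total, 362 of the 606 genes (59.7%, 95% Wilson interval 55.8% to 63.6%, counting error only) had at least 10 reads over the 4 libraries, compared with 63.9% of the other X genes, 68.0% of genes in the last 4 Mb of X and 68.2% of autosomal genes. No read at all was listed for 19.6% of left-end genes, against 15.6% of autosomal genes. A listing of 0 is not always a measured absence, because 82 of 144 ribosome and translation genes in the whole table had no read in any library. The ribosomal protein gene rpl-11.2 of the left end was among them. At equal depth, with each library thinned to the size of the shallowest, 278 and 303 left-end genes reached 3 reads in met-2;him-8, compared with 323 and 283 in him-8. The genotypes overlapped in this number. As shares of genes these were 45.9% to 53.3%, where autosomal genes lay between 56.5% and 61.5%.

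Level per length, in CPM per kilobase of exon, could be computed for 579 left-end genes. Its median was 0.173, beside 0.216 for the rest of X and 0.511 for autosomes. Only 179 of the 579 genes (30.9%) had a mean level over 1 and 40 (6.91%) a mean level over 10, whereas 30.7% of autosomal genes exceeded 10. By the RPKM of the authors' table, 80 of all 606 left-end genes (13.2%) were over 10, and 33.7% of autosomal genes. Among genes with enough reads to be tested, the median level was 2.18 at the left end, 2.25 on the rest of X and 19.7 on autosomes. These values average the 4 libraries.

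**Figure D1:**
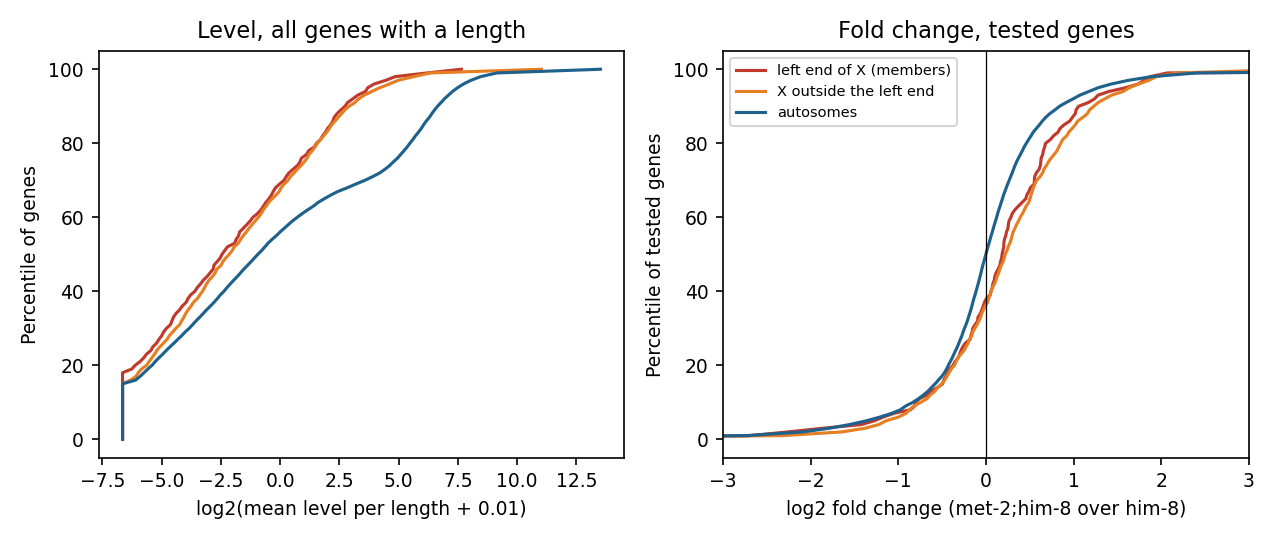
Percentile of genes against mean level per length (left panel, log2 scale with 0.01 added, all genes with a length) and against the fitted log2 fold change of met-2;him-8 over him-8 (right panel, genes tested), for left-end genes, the rest of X and autosomes. The X curves run close together and to the left of autosomes in level (medians 0.173, 0.216 and 0.511), and slightly to the right of autosomes in fold change (medians 0.19, 0.22 and -0.00067).

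A few genes supplied much of the signal from this region. The 12 with the highest level per length accounted for 29.7% to 38.3% of left-end reads in a library. The highest was T04G9.7 (X, 770845 to 771831), a protein-coding gene with no assigned role in the files, with mean levels of 115.6 ± 10.9 in met-2;him-8 and 285 ± 31.4 in him-8 (SD, n = 2 each). Next came 3 genes of 1 short stretch. ZK813.3 (X, 3441840 to 3442358) had levels of 183 and 180 in met-2;him-8 and 183 and 188 in him-8, the most even of the leading genes. ZK813.1 stood at 148 and 124 against 119.5 and 136, and ZK813.7 at 155 and 53.05 against 88.8 and 105. The met-2;him-8 replicates differed more from each other in ZK813.7 than the genotypes did. Between them lies ZK813.2 at a mean level of 13.3, while ZK813.4, ZK813.5 and ZK813.6 of the same cosmid were each at 0.328 or less.

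Metabolic enzymes and proteins of the secretory pathway came next. The gene pccb-1, for the beta subunit of propionyl-CoA carboxylase, had levels of 98.03 and 63.4 in met-2;him-8 and 115 and 86.6 in him-8. Its neighbour in rank, trap-2, for a subunit of the translocon-associated complex of the endoplasmic reticulum, had levels of 78.5 and 54.3 against 94.1 and 77.9. D1005.1, named acly-1 in the current annotation and encoding ATP citrate lyase, had levels of 70.8 and 66.5 against 89.4 and 63.7, and it carried the most reads of any left-end gene, up to 15544 in 1 library. In all of these the genotypes overlapped. Y73B3A.1 stood at 51.8 and 69.8 against 45.7 and 37.3, both met-2;him-8 values above both him-8 values, a log2 fold change of 0.55 ± 0.26 (SE, unadjusted p = 0.0868).

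The list of 12 was completed by F52D2.6, ttr-42, aqp-7 and ife-2. The transthyretin-related gene ttr-42 had levels of 56.3 and 23.1 in met-2;him-8 and 30.3 and 23.6 in him-8, high in 1 library. The aquaglyceroporin gene aqp-7 had levels of 25.04 and 25.8 against 31.3 and 47.3, lower in both met-2;him-8 libraries (log2 fold change -0.62 ± 0.31, -0.30 without him-8 replicate 2 and -0.91 without him-8 replicate 1). The cap-binding translation factor gene ife-2 had levels of 33.1 and 29.5 against 30.2 and 29.3, an overlap within a narrow range. F52D2.6 had a mean level of 34.9 by current exon length but pooled values of 9.57 and 8.26 RPKM in the authors' table. Its exon length is 557 bases in the current annotation, and its rank is uncertain.

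**Figure D2:**
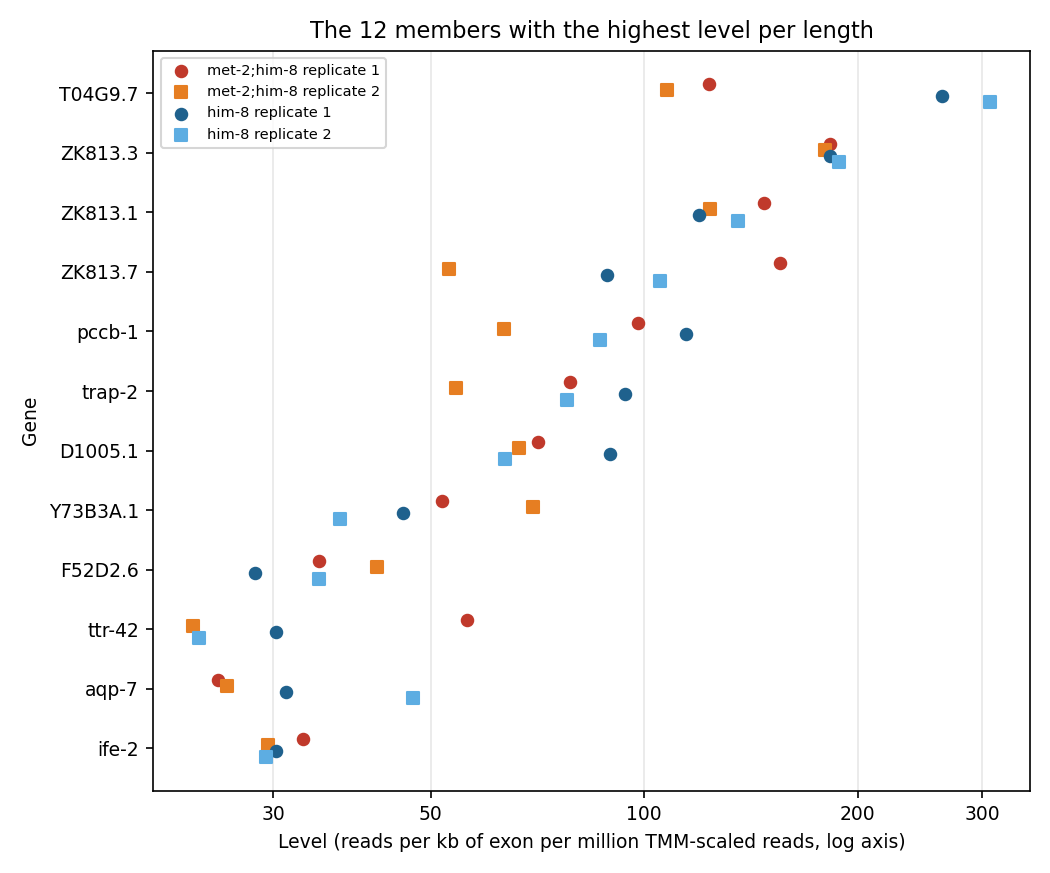
Level per length (x axis, log scale) of the 12 left-end genes with the highest mean level, 1 point per library. T04G9.7 has the widest gap between genotypes among them, at 123 and 108 in met-2;him-8 and 263 and 307 in him-8, while ZK813.3 lies between 180 and 188 in all 4 libraries.

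The main comparison asked whether transcripts from this region differ between gonads with and without MET-2. Of the 606 left-end genes, 270 (44.6%) passed the filter on low counts, compared with 54.6% of autosomal genes. None was called at an adjusted p below 0.05 in the edgeR quasi-likelihood test, the smallest adjusted p being 0.886, and none of all 10875 genes tested was called (0%). At an unadjusted p below 0.05, 4 left-end genes stood higher in met-2;him-8 and 6 stood lower, together 3.70% of those tested, where 1.83% of all genes tested were higher and 3.01% lower (4.84% in all). Among them, C04E7.3, acp-1 and C04E7.5 passed the filter on low counts only through the genotype where they were higher. Their direction was tied to that filter and adds no support. The number at an unadjusted p below 0.05 rested on single libraries, for left-end genes as for the whole table. Without met-2;him-8 replicate 1 it was 44 (13.8% of those tested, where 14.9% of all genes passed), and without met-2;him-8 replicate 2 it was 30 (10.9%, where 12.3% passed). Without him-8 replicate 1 it was 3 (1.103%, against 1.70% of all) and without him-8 replicate 2 it was 2 (0.619%, against 0.517%). The count after adjustment was 0 in each of these fits. The balance of directions also depended on the tool and the filter. DESeq2 gave 13 higher and 6 lower, where 2.94% of all genes tested were higher and 2.89% lower. With no filter on low counts, edgeR gave 17 higher and 6 lower of 487 tested, where 3.93% of all genes tested were higher and 2.6% lower. DESeq2 called 1 left-end gene, T04G9.7, of 26 genes called in all (0.239%).

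Fold changes of the region were centred slightly above 0. The median log2 fold change of the 270 genes was 0.19 (quartiles -0.26 and 0.63), and 167 (61.9%) were positive, compared with 51.5% of all genes tested. The rest of X had a median of 0.22, the last 4 Mb of X 0.22 and autosomes -0.00067. Both met-2;him-8 libraries were above both him-8 libraries in 49 left-end genes (18.1%, against 16.9% of all genes tested) and below both in 44 (16.3%, against 19.8%). Reads from left-end genes made up 0.320% and 0.259% of all gene reads in met-2;him-8 and 0.301% and 0.244% in him-8. These shares overlapped, with a ratio of means of 1.06. As a share of X reads alone they were 15.8% and 15.3% against 16.9% and 17.7%, both met-2;him-8 libraries lower, with a ratio of 0.898.

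The shift in the median was of the same size as the difference between replicates. Between single libraries, the median log2 ratio of left-end genes was 0.054, 0.18, -0.074 and 0.25 in the 4 pairs of a met-2;him-8 with a him-8 library. Replicates of met-2;him-8 differed by a median of 0.13 and those of him-8 by 0.19. The rest of X moved in the same way, with medians of 0.045, 0.29, -0.13 and 0.28 in the 4 pairs between genotypes. Its replicates differed by 0.16 in met-2;him-8 and 0.24 in him-8. Autosomal medians lay between -0.051 and 0.0037 in all 6 pairs. Without met-2;him-8 replicate 1 the median over left-end genes was 0.037, and without him-8 replicate 1 it was 0.32. Among the 270 genes, met-2;him-8 replicate 1 was the highest library for 106 (39.3%, against 28.3% of all genes tested) and him-8 replicate 2 for 34 (12.6%, against 23.8%). The latter was the lowest library for 105 of them, and for 25.6% of all genes tested. The median coefficient of variation between replicates was 37.0% in met-2;him-8 and 19.7% in him-8. It was 46.3% and 25.4% over the rest of X, and 27.7% and 16.5% over autosomes. The summed intestinal markers were also highest in met-2;him-8 replicate 1 and lowest in him-8 replicate 2. Summed markers of germ cells and oocytes were higher in both met-2;him-8 libraries as well. The part of either in the shift was not tested.

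**Figure D3:**
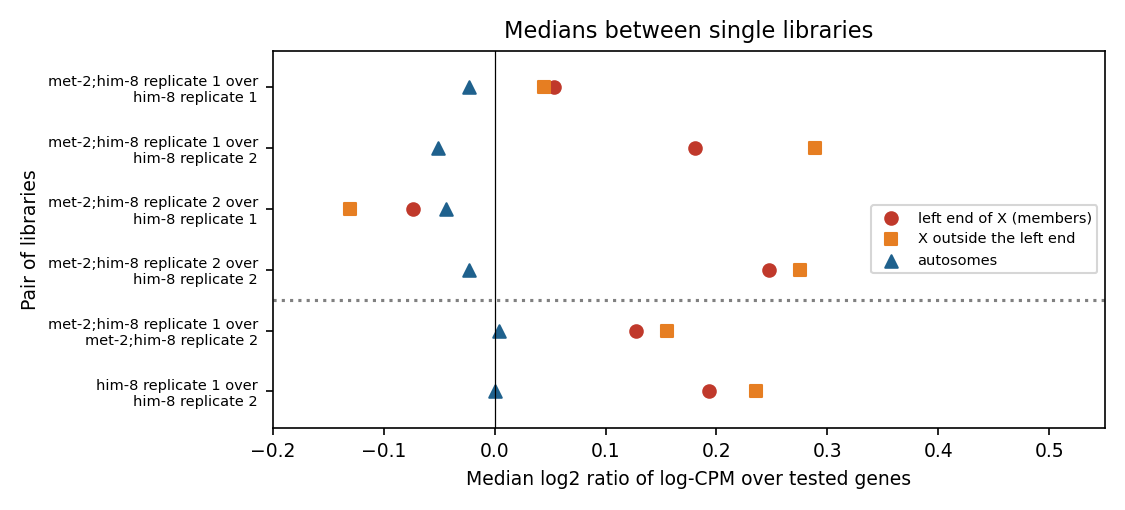
Median log2 ratio between 2 single libraries over the tested genes of each class (x axis), with pairs between genotypes above the dotted line and replicate pairs below it. Left-end medians ranged from -0.074 to 0.25 between genotypes and were 0.13 and 0.19 between replicates. The rest of X ranged from -0.13 to 0.29 and had 0.16 and 0.24 between replicates, whereas autosomal medians stayed near 0.

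The most abundant transcript of the region was among those with lower values in met-2;him-8. T04G9.7 had 56.1 and 49.1 CPM in met-2;him-8 and 120 and 140 CPM in him-8, means of 52.6 ± 4.97 and 130 ± 14.3 (SD, n = 2 each). The groups were well separated and each was tight. Its log2 fold change was -1.30 ± 0.23 (unadjusted p = 0.00248), with an adjusted p of 0.886 in edgeR and 0.0349 in DESeq2, and it lay between -1.43 and -1.18 with any 1 library left out.

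Y73B3A.20 (X, 47998 to 48371), a gene near the chromosome end with no role given in the files, had 1.35 and 1.44 CPM in met-2;him-8 and 5.17 and 5.55 CPM in him-8. That is 26 and 48 reads against 268 and 76, and a log2 fold change of -1.94 ± 0.48 (unadjusted p = 0.00995). The fatty acid binding protein gene lbp-3 had 2.64 and 3.12 against 5.92 and 7.24 CPM, a log2 fold change of -1.19 ± 0.44 (unadjusted p = 0.0437). The serotonin receptor gene ser-7, known for its role in pharyngeal pumping, had 0.881 and 1.53 against 2.95 and 3.58 CPM, a log2 fold change of -1.42 ± 0.60. In each of these genes the met-2;him-8 values were below both him-8 values. F47B7.1 and T04G9.4 completed the 6 with the lowest values among genes without overlap and with 10 or more reads per library, at log2 fold changes of -1.09 ± 0.76 and -1.07 ± 0.74 from 17 to 97 and 11 to 90 reads per library.

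Among more abundant genes, hex-1, which encodes a lysosomal beta-hexosaminidase, had 20.2 and 13.7 CPM in met-2;him-8 and 29.3 and 33.3 CPM in him-8. Its log2 fold change was -0.89 ± 0.33 (unadjusted p = 0.0434), and the groups did not overlap. It was 1 of the 6 genes that were lower at an unadjusted p below 0.05, with T04G9.7, Y73B3A.20, lbp-3, acp-1 and C04E7.5. The last had 0 and 1 reads in met-2;him-8 and 35 and 8 reads in him-8. hex-1 and C04E7.5, and pdk-1 and sax-3 below, were picked out after their values were seen.

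Under the same limits, the genes that stood higher in met-2;him-8 were led by F54G2.1 (X, 2621737 to 2664365), with 4.3005 and 5.22 CPM in met-2;him-8 and 1.003 and 0.804 CPM in him-8. The 2 values of each genotype were close, and no overlap was a condition for being listed. The reads were 83 and 174 against 52 and 11, so the closeness in him-8 rests on few reads. The log2 fold change was 2.38 ± 0.54 (unadjusted p = 0.00655) and stayed between 2.21 and 2.55 with any 1 library left out. F54G2.1 overlaps F54G2.2 on the same strand, so reads of the pair may be shared.

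The other leading genes depended more on 1 library. The gene unc-2, for the pore-forming subunit of a neuronal voltage-gated calcium channel, had 1.87 and 6.27 CPM against 1.37 and 0.877 CPM, highest in met-2;him-8 replicate 2, with a log2 fold change of 1.84 ± 0.78. F40F4.6, now named irg-7 for its response to infection, had 24.7 and 10.95 CPM against 7.73 and 2.49 CPM, highest in met-2;him-8 replicate 1, with a log2 fold change of 1.78 ± 0.72. The planar cell polarity gene vang-1 had 16.1 and 5.04 against 3.895 and 3.22 CPM, again highest in replicate 1, with a log2 fold change of 1.56 ± 0.66. Without that library the value for vang-1 was 0.51. The ligand-gated ion channel gene lgc-40 showed the same form at 4.87 and 1.80 against 1.33 and 1.46 CPM, with 1.25 ± 0.70 falling to 0.38. C12D12.1 was even, at 2.69 and 2.31 against 1.06 and 0.950 CPM, a log2 fold change of 1.31 ± 0.59.

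A pair of signalling genes at higher levels was separated with less spread. The gene pdk-1, for the phosphoinositide-dependent kinase of the insulin pathway, had means of 14.2 ± 1.19 CPM in met-2;him-8 and 7.08 ± 1.22 CPM in him-8 (SD, n = 2 each), from 257 and 500 against 412 and 85 reads. The CPM did not overlap, and the log2 fold change was 0.997 ± 0.37 (unadjusted p = 0.041). The gene sax-3, for the Robo-type axon guidance receptor, had 26.8 and 38.6 against 19.1 and 17.9 CPM, a log2 fold change of 0.82 ± 0.32 (unadjusted p = 0.0485). With F54G2.1 and C04E7.3, these were the 4 left-end genes that were higher at an unadjusted p below 0.05. The adjusted p of all 10 was 0.886 in edgeR, fitted without a replicate block.

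**Figure D4:**
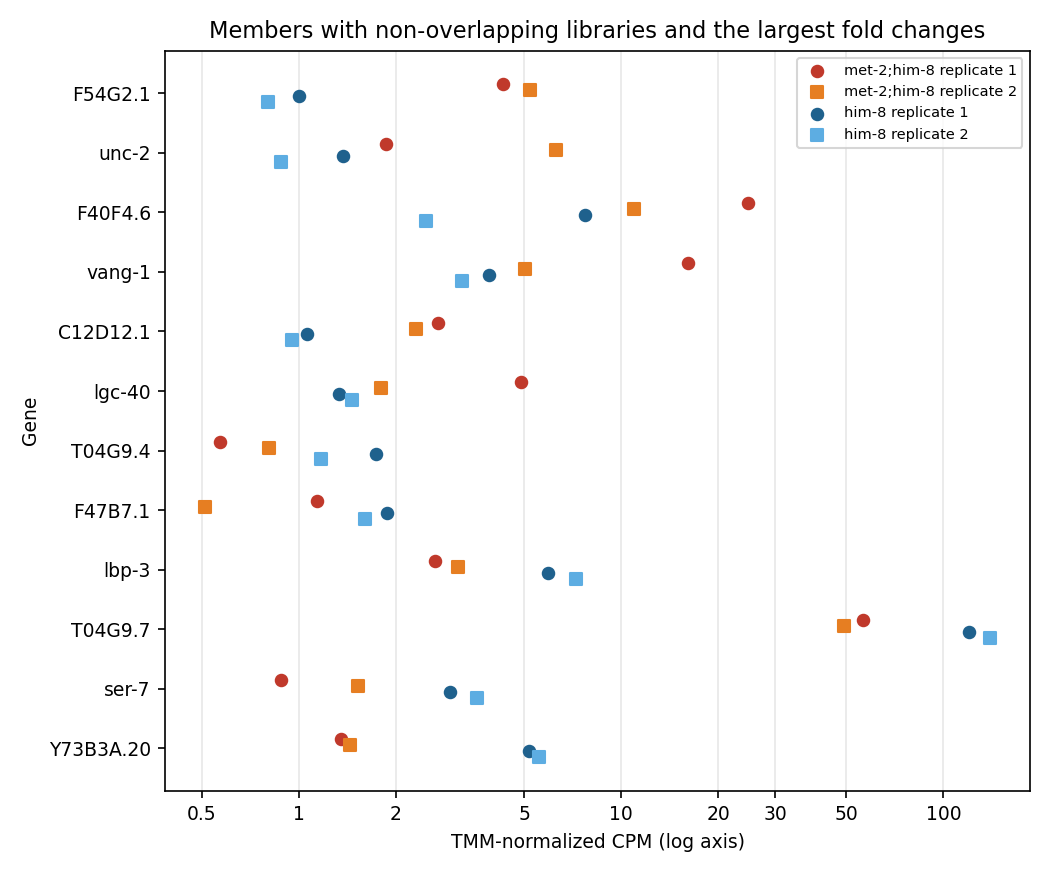
TMM-scaled CPM (x axis, log scale) in each library of the 12 left-end genes with the largest fold changes among those with no overlap between genotypes and 10 or more reads per library. F54G2.1, T04G9.7 and Y73B3A.20 show tight groups on each side, while vang-1, unc-2 and lgc-40 are drawn out by 1 met-2;him-8 library.

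Transcripts seen in 1 genotype only were few and shallow. For acp-1, of the acid phosphatase family, no read was found in either met-2;him-8 library and 24 and 8 reads were found in him-8. Its mean CPM in him-8 was 4.27 times the floor of 3 reads per library, averaged over the met-2;him-8 libraries. The transthyretin-related gene ttr-37 had 0 and 0 against 18 and 6 reads, a mean in him-8 of 3.20 times that floor. Genes with this form, 0 reads in both met-2;him-8 libraries and 5 or more in both him-8 libraries, were 0.216% of all genes in the table, and acp-1 and ttr-37 were the 2 at the left end.

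In the other direction, C04E7.3 had 29 and 25 reads in met-2;him-8 and none in him-8. Its mean CPM in met-2;him-8 was 8.13 times the floor averaged over the him-8 libraries. The gene set-33, annotated as a pseudogene and named for the SET domain, had 6 and 18 reads against none, a mean of 3.07 times that floor. It did not pass the filter on low counts. Genes absent from both him-8 libraries in this way were 0.0638% of the table (13 genes), of which these were the 2 left-end genes. The highest of these 4 genes averaged 1.13 CPM in the genotype where it was found.

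The X signal elements lay within the region. The ONECUT homeobox gene ceh-39 (X, 1854399 to 1855870) had 14.5 and 17.5 CPM in met-2;him-8 and 8.87 and 11.8 CPM in him-8, and its libraries did not overlap. Its log2 fold change was 0.63 ± 0.36 (unadjusted p = 0.136). The RNA-binding protein gene fox-1 (X, 2446067 to 2450487) had 8.34 and 7.62 against 9.27 and 9.21 CPM, slightly lower in both met-2;him-8 libraries (log2 fold change -0.21 ± 0.36). Neither passed the test, and they differed in direction. Over 17 sex determination and dosage compensation genes of the whole table, all of which were tested, the median log2 fold change was 0.31 and none was called.

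Next to ceh-39 are 2 more ONECUT genes. ceh-21 averaged 17.7 ± 0.419 CPM in met-2;him-8 and 10.6 ± 0.0322 CPM in him-8 (SD, n = 2 each), with no overlap. An SD from 2 libraries says little about the spread between preparations. The log2 fold change of ceh-21 was 0.74 ± 0.32 (unadjusted p = 0.0663). ceh-41, the outermost of the 3, had 6.89 and 5.31 against 8.16 and 6.51 CPM and overlapped, at -0.27 ± 0.42. Genes that start within 10 kb of one another in this cluster thus had values on both sides of 0.

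Other developmental regulators at the left end were mostly near the detection limit. Of 19 genes of the homeobox, T-box, bHLH and related families, 7 were tested, 4 were higher in both met-2;him-8 libraries and none was lower in both, with a median log2 fold change of 0.63. Over 69 tested genes of these families in the table the median was 0.11, with 17 higher (24.6%) and 7 lower (10.1%) in both. Along with ceh-39 and ceh-21, these 4 were the zinc finger gene ztf-13, at 4.35 and 3.42 against 2.97 and 1.46 CPM, and the POU homeobox gene ceh-18, at 2.75 and 1.77 against 1.47 and 0.804 CPM. ceh-18 acts in the gonadal sheath and is itself on the list of sheath markers. The proneural gene lin-32 had 2 reads in every library.

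Most genes for neuronal signalling had few reads. All 3 tested of 7 ion channel and ligand-gated receptor genes were higher in both met-2;him-8 libraries, namely unc-2, lgc-40 and the potassium channel gene twk-16, which had 0.674 and 0.660 against 0.347 and 0.292 CPM. However, twk-16 passed the filter on low counts only through its met-2;him-8 libraries, so its direction adds no support. The median log2 fold change of the 3 genes was 1.25, and that of 89 tested genes of this list in the table was 0.13, with 23 (25.8%) higher and 18 (20.2%) lower in both. Of 12 genes for G protein coupled receptors and their regulators, 6 were tested, with a median of -0.20 and values of either sign. The RGS gene rgs-7 was higher in both, at 21.6 and 20.5 against 14.8 and 14.5 CPM (0.52 ± 0.30). Another RGS gene, rgs-9, overlapped at 18.6 and 25.5 against 20.8 and 18.8 CPM. Of 7 neuropeptide and insulin genes only flp-18 was tested, at 27 and 4 against 19 and 1 reads. Summed pan-neuronal markers lay between 117 and 165 CPM, most of it from snb-1, and rab-3 did not exceed 0.443 CPM.

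Several cytoskeletal genes were highest in met-2;him-8 replicate 2. All 9 were tested, 8 had a positive log2 fold change and the median was 0.67, beside 0.16 for 156 tested genes of this list in the table. The gene spc-1, for alpha spectrin, had 24.97 and 99.9 CPM in met-2;him-8 and 26.98 and 34.7 CPM in him-8. The gene nmy-1, for a non-muscle myosin heavy chain, had 14.2 and 51.4 against 8.87 and 21.5 CPM. Both overlapped between genotypes and stood out in met-2;him-8 replicate 2, which also had the highest sum of sheath, spermatheca and muscle markers, most of it from the filamin gene fln-1. The muscle markers unc-54, unc-15 and myo-3 were highest there too, at 123, 40.4 and 14.5 CPM. The sheath markers inx-8, inx-9 and lim-7 had 101.3, 31.2 and 2.91 CPM there, each the lowest of the 4 libraries. Without that library the log2 fold changes of spc-1 and nmy-1 were -0.32 and -0.10, from 1.02 and 1.12. The kinesin genes klp-4 and klp-8 were likewise highest there, at 7.11 and 6.66 CPM, and stood at log2 fold changes of -0.46 and -1.01 without it, from 0.67 and 0.62. The part of somatic cells in these values was not tested. The intermediate filament gene ifc-2 had another pattern, 17.8 and 4.14 against 8.21 and 2.19 CPM. The tubulin gene tba-9 was the 1 member of the list without overlap (11.1%), at 1.76 and 1.11 against 0.559 and 0.219 CPM. Over the 156 tested genes of this list in the table, 21.2% were higher and 9.62% lower in both met-2;him-8 libraries.

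Genes of membrane traffic were all tested, 11 of 11, and had a median log2 fold change of 0.13. Of these, 2 (18.2%) were higher in both met-2;him-8 libraries (vps-45 and syx-6) and 3 (27.3%) lower in both. Over 191 tested genes of this list in the table, 13.6% were higher and 24.1% lower in both. The 3 lower genes were snx-1, for a sorting nexin of the retromer, at 30.5 and 27.5 against 39.7 and 41.2 CPM, apm-3, for the medium subunit of the AP-3 adaptor, at 8.497 and 4.53 against 11.1 and 10.5 CPM, and gap-1, for a Ras GTPase activator that the symbol list took in, at 7 and 7 against 63 and 10 reads. The log2 fold change of snx-1 was -0.48 ± 0.26. The vacuolar proton pump gene vha-15 had 61.7 and 37.3 against 51.6 and 34.1 CPM, and rme-6, for an endocytic Rab5 regulator, 12.7 and 30.1 against 19.9 and 19.2 CPM. In both of these the met-2;him-8 libraries lay on either side of a him-8 library.

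Genes for RNA silencing and chromatin were few in this region. The gene nrde-3, for a somatic Argonaute that carries small RNAs into the nucleus, had 16.2 and 28.02 CPM in met-2;him-8 and 12.9 and 16.01 CPM in him-8. The groups nearly met, and its log2 fold change was 0.62 ± 0.40 (unadjusted p = 0.18, 0.16 on the log2 scale without met-2;him-8 replicate 2). The cell death nuclease gene crn-4 overlapped at 24.6 and 35.5 against 28.2 and 21.3 CPM, as did set-28, which had 0 and 50 reads against 37 and 1. The 4 tested genes of RNA binding and small RNA function had a median of 0.20, beside 0.012 for 164 such genes in the table.

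Metabolic genes of the region showed no common direction beyond the spread of replicates. The 5 tested enzymes of the detoxification, dehydrogenase and glycolysis list had a median of 0.26 and no gene without overlap. Over 268 tested genes of this list in the table, 10.4% were higher and 25% lower in both met-2;him-8 libraries. The glyceraldehyde 3-phosphate dehydrogenase genes gpd-3 and gpd-2 lie side by side and were close in level, at 38.7 and 28.98 against 36.4 and 15.4 CPM for gpd-3 and 29.8 and 21.9 against 32.9 and 15.9 CPM for gpd-2. They are near-identical copies, so the division of reads between them is uncertain. Y71H10A.1, named pfk-1.1 in the current annotation and encoding phosphofructokinase, was lower in both met-2;him-8 libraries at 89.9 and 82.7 against 119.1 and 99.8 CPM (-0.34 ± 0.23). The dehydrogenase gene dhs-25 overlapped, at 19.02 and 14.2 against 27.4 and 11.5 CPM. The translation factor gene ife-4 was level at 5.85 and 5.85 against 5.88 and 5.04 CPM. Of the 413 genes without a symbol, 155 were tested, with a median of 0.18, and 21 (13.5%) were higher and 30 (19.4%) lower in both met-2;him-8 libraries. Of all 6231 tested genes without a symbol, 16.3% were higher and 20.98% lower in both.

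Neighbouring genes were set side by side in 3 places, chosen after their values were seen. Around T04G9.7, the next genes on the left, trap-2 and ile-2, the latter for a cargo lectin of the secretory pathway, had log2 fold changes of -0.37 ± 0.30 and -0.46 ± 0.45 with overlapping libraries. To the right, T04G9.4 was at -1.07 and T04G9.1, now attf-5, at 2.26 ± 1.32, the latter from 11 and 332 against 41 and 20 reads and at -0.95 without met-2;him-8 replicate 2. Farther along, F28B4.3 and irg-7 are adjacent and had a similar profile, F28B4.3 having 47.7 and 9.84 against 12.4 and 4.68 CPM, with both genes highest in met-2;him-8 replicate 1 and lowest in him-8 replicate 2. The log2 fold change of F28B4.3 was 0.20 without met-2;him-8 replicate 1. The fatty acid binding genes lbp-3, lbp-1 and lbp-2 follow each other within a few kilobases. lbp-1 had 10.5 and 6.15 against 7.31 and 4.68 CPM and lbp-2 4.97 and 2.88 against 2.97 and 1.39 CPM. Both overlapped between genotypes with positive log2 fold changes (0.47 ± 0.49 and 0.83 ± 0.64), whereas lbp-3 was lower in both met-2;him-8 libraries.

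Detection varied along the region. In 8 intervals of 500 kb, the share of genes with at least 10 reads ran from 38.9% of 72 genes between 1.5 and 2 Mb to 76.8% of 56 genes between 2.5 and 3 Mb. It was 67.1% in the first interval, at the chromosome end. Median log2 fold changes from left to right were -0.022, 0.25, 0.15, 0.22, -0.023, 0.18, 0.33 and 0.27, over 19 to 47 tested genes each. Of the 8 medians 6 were above 0, and the interquartile ranges of all 8 intervals overlapped. Summed CPM per interval gave ratios of met-2;him-8 to him-8 from 0.884 in the second interval, which holds T04G9.7, to 1.24 in the last. The highest gene of each interval by level was, in order, Y73B3A.1, T04G9.7, D1005.1, F52D2.6, vha-15, ttr-42, ZK813.3 and C18B2.4. The borders of the pairing center are not in the files, and no interval is identified with it.

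**Figure D5:**
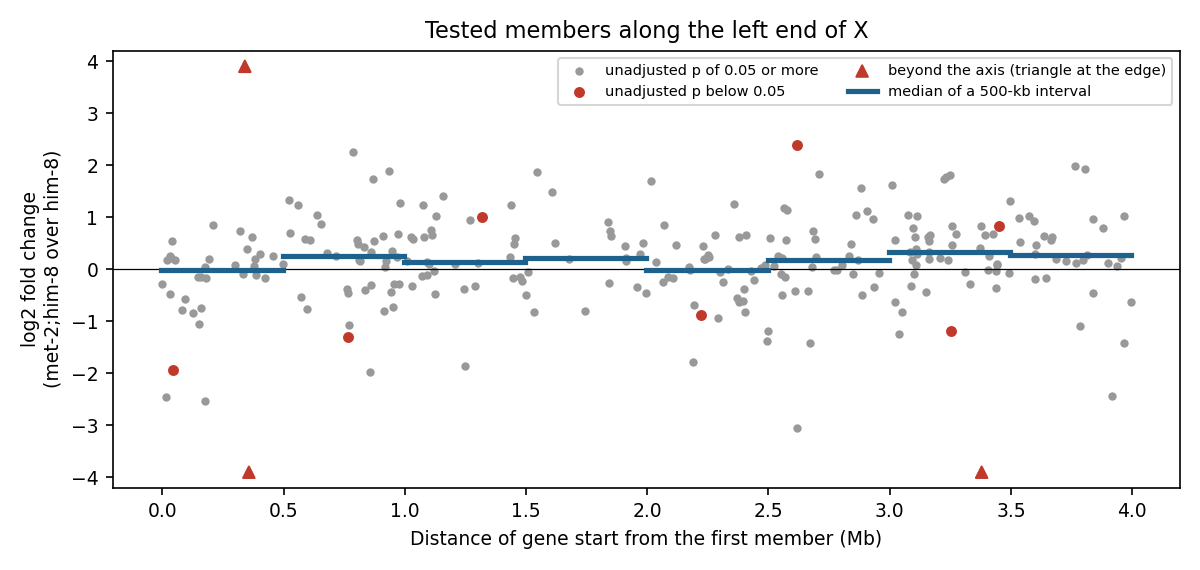
Fitted log2 fold change of met-2;him-8 over him-8 (y axis) of the 270 tested left-end genes against the distance of their start from the first left-end gene (x axis, Mb). Bars are medians of 500-kb intervals, which lie between -0.023 and 0.33, and the 10 genes at an unadjusted p below 0.05 (red, triangles beyond the axis) are scattered over the region.

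At the border of the region, C16B8.4 and R02E12.5 were the last genes inside position 4000000. They had 9 and 31 against 94 and 27 reads and 19 and 37 against 74 and 25 reads, and both were lower in both met-2;him-8 libraries, at log2 fold changes of -1.42 ± 0.73 and -0.63 ± 0.66. The first genes outside were R02E12.4, which was not tested, and the heme transporter gene hrg-1, at 2.12 and 2.04 against 3.76 and 2.05 CPM and a log2 fold change of -0.49 ± 0.58. With the border at 2 or 3 Mb the median log2 fold change was 0.17 or 0.14, and none was called.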

How the data were processed

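Gonad mRNA was sequenced from 2 met-2;him-8 and 2 him-8 preparations, and the labels give each sample's genotype and replicate number. The kit does not mark strand, so overlapping antisense genes cannot be told apart (17 left-end genes overlap another gene, 15 of them on the opposite strand). The authors aligned reads with STAR and compared genotypes with Cuffdiff 2.2.1, per the labels. The authors deposited estimated counts for each gene in each library, whose tool is not given in the sources used here, and between 53 and 66 genes per library held values that were not whole, so counts were rounded. The authors also deposited a Cuffdiff table with 1 RPKM value per gene and genotype, its gene positions and the fold changes and p-values of their comparison. The latter were not used. All 3243 genes without a Cuffdiff test had 0 reads.

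Counts were tested in edgeR 4.0.16 (TMM, filterByExpr, quasi-likelihood F test, no block) on the 4 libraries, with Benjamini-Hochberg adjustment over all 10875 genes that passed, at a threshold of 0.05. Standard errors are those of the fitted log2 fold change. DESeq2 1.42.0, other scalings and filters, a replicate block, single libraries left out and other borders were tried. The fit was also run on simulated counts with 200 changed genes, and the outcome of that run is not given here. p-values over 2 libraries per genotype measure only the spread between these preparations. Level per length used exon lengths of the WBcel235 annotation, matched by sequence name for 579 of 606 genes. For 78 of these the length exceeded the gene's span in the deposited table and was capped at that span, a choice made after seeing the files. Promoter and protein sequences were not used here. The floor of 3 reads was 0.0578 to 0.219 CPM and, like the Wilson intervals, covers counting error only.

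Genes were named by rule: the 12 highest by level; the 6 largest fold changes in each direction among genes with no overlap and 10 or more reads in each library; genes with 0 reads in 1 genotype and at least 5 in both libraries of the other; the highest of each interval; the genes at the border; the X signal elements; and up to 3 genes with most reads per symbol list. Any other gene was picked with its values in view. The region, the lists and the rule were chosen with earlier results of these data known.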

Additional observations from a re-analysis of the deposited data

How the results depend on the processing

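The number of left-end genes called was 0 with RLE or upper quartile scaling, a CPM filter, robust dispersion, any 1 library left out, other borders, all families kept, or an adjusted p below 0.1. It was 2 with no filter on low counts (113 of all genes, 0.659%) and 1 with DESeq2. The number at an unadjusted p below 0.05, 10 (4 higher, 6 lower), became 6 with upper quartile scaling (4.15% of all genes), 23 of 487 tested with no filter (17 higher, 6 lower, 6.53% of all genes), 19 with DESeq2 (13 higher, 6 lower, 5.83% of all genes), 5 of 124 tested with the border at 2 Mb and 2 to 44 with 1 library left out. The median log2 fold change ranged from 0.037 to 0.32 with 1 library left out, and the ratio of read shares from 0.951 to 1.19. As a share of X reads that ratio was 0.898. The share detected was 80.4% at 1 read, 46.04% at 40 reads, 39.2% by a level above 0.5 and 54.4% below 2 Mb. The authors' RPKM put 80 genes over 10 where level per length put 40, also without the cap on length, and 8 of the 12 highest were shared. At this depth, 173 left-end genes with fewer than 3 reads in every library allow no statement.

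Replicate numbers are shared across genotypes, but with 2 pairs and no statement that a number marks a shared batch they do not establish pairing. Same-numbered libraries deviated together (r = 0.36 over 10875 genes, 0.35 over the 270 left-end genes). With a replicate block, 144 of all genes were called (1.32%), 4 of them at the left end (T04G9.7 at an adjusted edgeR p of 0.00877, F40F4.6 at 0.00772, F28B4.3 at 0.0269 and F54G2.1 at 0.045), 23 were at an unadjusted p below 0.05 (16 higher and 7 lower, with 10.3% of all genes), and ZK813.7 and set-28 turned to log2 fold changes of -0.085 and -0.042.

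Of 71 tested genes described here, 23 changed sign with some library left out, all with overlapping genotypes. The log2 fold change then ranged, over the libraries left out, from -0.38 to 0.10 in D1005.1, -0.033 to 0.20 in ZK813.1, -0.86 to 0.67 in ZK813.7, -0.019 to 0.53 in crn-4, -0.72 to 0.52 in dhs-25, -0.34 to 1.24 in gei-12, -0.46 to 1.31 in klp-4, -1.01 to 1.37 in klp-8, -0.95 to 3.21 in T04G9.1, -0.27 to 2.53 in ZK813.4, -1.02 to 3.25 in flp-18, -0.35 to 0.69 in gpd-2, -0.10 to 1.12 in gpd-3, -0.34 to 2.298 in ifc-2, -0.0028 to 0.14 in ife-2, -0.0047 to 0.20 in ife-4, -0.10 to 1.90 in nmy-1, -0.10 to 0.38 in rgs-9, -0.63 to 0.63 in rme-6, -6.67 to 3.27 in set-28, -0.32 to 1.71 in spc-1, -0.21 to 1.05 in ttr-42 and -0.19 to 0.52 in vha-15.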

Other observations

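Of the 20 genes left out by name, 7 were tested and none was called. The yolk protein genes vit-5, vit-4 and vit-3, made in the intestine, lie here and had 122 and 68.6 CPM in met-2;him-8 against 87.6 and 77.99 CPM in him-8 for vit-5, and 46.7 and 22.7 against 30.7 and 26.2 CPM for vit-4. Both overlapped. The adult cuticle collagen gene col-19 had 209 and 192 against 218 and 89.1 CPM, low in him-8 replicate 2, with a log2 fold change of 0.38 ± 0.44. Of 11 fbxa genes only fbxa-170 was tested, at 38.96 and 21.7 against 23.02 and 20.1 CPM. With these families kept, the median log2 fold change of the region was 0.19 over 277 tested genes.

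The gene gei-12 was, like spc-1 and nmy-1, highest in met-2;him-8 replicate 2, at 31.4 and 79.7 CPM against 23.7 and 55.3 CPM in him-8. Of 61 genes that the current annotation names and the deposited table lists by sequence name only, those described here are D1005.1, F40F4.6, Y71H10A.1, T04G9.1 and F47B7.1. The gene M02E1.3 was listed at 4 reads in all libraries together, while the authors' table gives it 869 RPKM in him-8, so RPKM of very short gene models in that table needs care.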
